A study of Mus musculus with 9 samples.

Results

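Skin of mice that received imiquimod together with oral vanillin was compared with skin of mock-treated mice, and the genes that still differed from mock are described here. The comparison used every array labelled with either treatment, which was 6 of the 9 arrays of the series, with 3 in each group. It covered the 20377 of 26423 probes that carry 1 gene symbol, which stand for 17742 genes. All groups were female BALB/c mice with shaved dorsal skin. Mock mice received Vaseline cream daily for 7 days. The vanillin mice received topical imiquimod and 100 mg/kg oral vanillin over the same 7 days. The remaining group received imiquimod cream alone, and its 3 arrays are given beside the others as values only; no difference from them was tested here. No group received vanillin without imiquimod, so the comparison with mock shows both agents together, and an effect of vanillin without imiquimod cannot be read from the series. Ages are not stated, and the labels do not say whether each array is a separate mouse, so the p-values measure the spread between arrays, which may be technical.

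Imiquimod is an agonist of toll-like receptor 7, and the cream is used on mouse skin to produce a psoriasis-like inflammation with a thickened epidermis. In that model dendritic cells make interleukin-23, T cells answer with interleukin-17 and interleukin-22, and keratinocytes respond with chemokines, antimicrobial proteins and a changed programme of cornification. Vanillin is the phenolic aldehyde of vanilla, and the title of the series asks about the interleukin-23 and interleukin-17 axis. Total RNA was labelled with Cy5 and hybridised to 1-colour arrays. A value below is the log2 intensity of 1 probe, and a difference is the mean of the vanillin arrays minus the mean of the mock arrays, given ± its standard error from limma with n = 3 against 3. A gene is called when its limma p, adjusted by Benjamini-Hochberg over all 20377 probes, is under 0.05.

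Some features of the data bear on what follows. The tissue is labelled skin, while the extraction text names muscle. The hair shaft, cornified envelope and skeletal muscle marker lists had median intensities at percentiles 98.0, 98.6 and 97.1 of all probes tested, so that defining markers of each were bright on the arrays. In bulk tissue, fewer cells of a type and less RNA per cell cannot be told apart. The deposited values had been equalised between arrays, with medians of 629 to 631 intensity units and the same maximum on each array, so a change in total signal would not be visible. Log2 values correlated at 0.989 to 0.993 between mock arrays, at 0.985 to 0.994 between vanillin arrays and at 0.969 to 0.978 across the groups.

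The sex labels could be compared with the data only in part. Xist, the RNA that coats the inactive X chromosome in female cells, read 9.71, 9.56 and 9.55 on the mock arrays, 13.20, 13.14 and 13.18 on the vanillin arrays and 12.88 to 13.003 on the imiquimod arrays. It was thus 11.8-fold higher in the vanillin group than in mock (3.56 ± 0.10, limma adjusted p = 4.00e-06), although all mice are labelled female. Kdm5d, the 1 Y-linked gene measured, was dim on all arrays, at 6.85 to 7.59 in mock and 7.55 to 8.14 in the vanillin group (0.51 ± 0.23, limma adjusted p = 0.168). Of 689 X-linked genes measured, 65 were called higher and 64 lower. Over all 17742 genes, 10.02% were called higher and 11.96% lower. Why Xist differed between the groups was not tested, and its part in the results below was not tested either.

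Against mock, 3899 of 17742 genes were called with vanillin plus imiquimod, which is 21.98%. Of these, 1777 were higher, 10.02% of the genes, and 2122 were lower, 11.96%. The counts for the gene lists below are to be read beside these shares. A difference of at least 2-fold was called for 828 genes, 4.67% of all, with 449 higher, 2.53%, and 379 lower, 2.14%. Over the probes, 4530 of 20377 were called, 22.2%, with 1969 higher, 9.66%, and 2561 lower, 12.6%. The 3 arrays of each group did not overlap for 7299 genes, 41.1% of those tested, whether or not they were called. The median difference over all genes was 0.0098. The count of called genes rested on single arrays to some degree: it was 2118 without Mock 2, 2343 without Mock 3, 2506 without Vanillin 1 and 2319 without Vanillin 2, and 3628 to 4054 without either of the others. The count of 2-fold changes moved less, between 793 and 901.

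**Figure D1:**
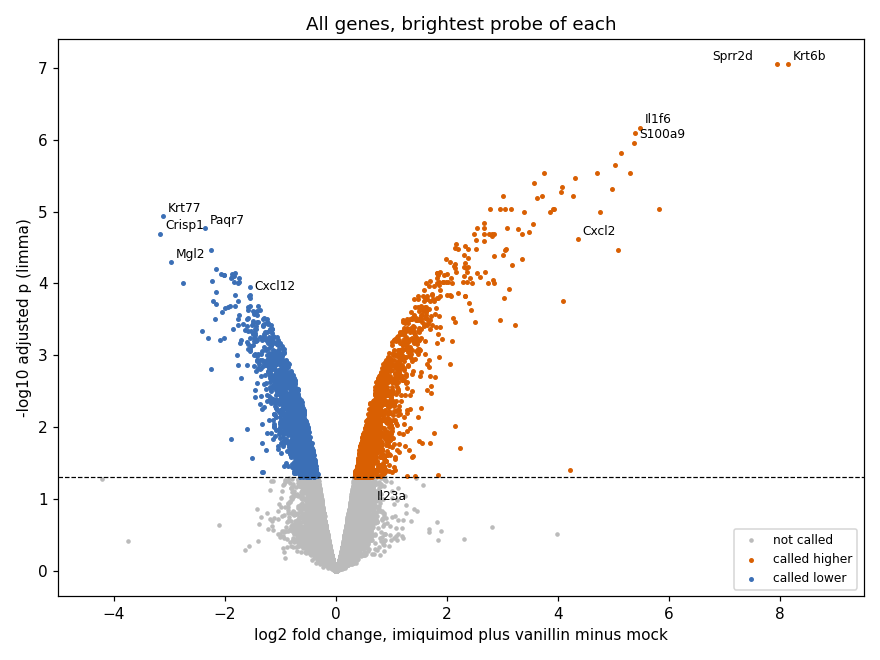
Each point is 1 gene, with the log2 difference of vanillin plus imiquimod minus mock on the x axis and -log10 of the limma adjusted p on the y axis; the dashed line is an adjusted p of 0.05. The rises reach 8.13 for Krt6b, while the largest fall among the named genes is -3.16 for Crisp1.

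The 10 largest rises included 3 small proline-rich genes, a keratin, a late cornified envelope gene and an IL-36 cytokine. Krt6b, a keratin that keratinocytes make after wounding and in hyperproliferative epidermis, read 9.43, 9.36 and 9.30 on the mock arrays and 17.48, 17.48 and 17.53 on the vanillin arrays, 281-fold higher (8.13 ± 0.10, limma adjusted p = 8.88e-08). Sprr2d, which encodes a proline-rich protein crosslinked into the dead cell envelope, read 8.73, 8.79 and 8.63 in mock and 16.70, 16.62 and 16.65 with vanillin (7.94 ± 0.10). For both genes the groups stood far apart while the arrays within a group lay close together. Only genes whose groups did not overlap could enter these 10. Lce3f, a late cornified envelope protein, was 56.3-fold higher (5.81 ± 0.21). Il1f6, which encodes IL-36 alpha, a keratinocyte cytokine of the IL-1 family, read 9.49, 9.44 and 9.55 in mock and 15.01, 14.92 and 14.97 with vanillin, a 44.5-fold rise. S100a9, a subunit of calprotectin made by neutrophils and stressed keratinocytes, went from 11.24, 11.39 and 11.46 to 16.67, 16.71 and 16.83 (5.37 ± 0.11). The others of the 10 largest rises included Sprr2g (5.39 ± 0.10) and Sprr2e (5.14 ± 0.12), of the same family as Sprr2d. Lpo, lactoperoxidase (5.29 ± 0.14), and Wfdc12, a secreted protein with a whey acidic domain (5.02 ± 0.12) were of the same set. Tcf23, a helix-loop-helix factor, was also among the 10 (5.08 ± 0.24). On the imiquimod arrays Krt6b read 16.98 to 16.997, Sprr2d 16.53 to 16.58 and Lce3f 13.49 to 13.75, all far above mock as well.

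The largest falls were smaller in size. Crisp1, a cysteine-rich secretory protein, read 10.78, 10.98 and 11.12 in mock and 7.93, 7.81 and 7.64 with vanillin, 8.96-fold lower (-3.16 ± 0.13, limma adjusted p = 2.03e-05). Krt77, a type II keratin of the epidermis, went from 14.54, 14.78 and 14.81 to 11.67, 11.55 and 11.58 (-3.11 ± 0.12). Mgl2, a C-type lectin of dermal dendritic cells and macrophages, went from 12.35, 12.50 and 12.78 to 9.48, 9.77 and 9.47 (-2.97 ± 0.15), and was at 10.18 to 10.24 on the imiquimod arrays. By the rule that chose them, none of these genes had overlapping groups. Also among the 10 were Trim2, a ubiquitin ligase (-2.75 ± 0.17), and Paqr7, a membrane progestin receptor (-2.35 ± 0.09). Ifitm6 (-2.31 ± 0.21), Serpinb6e (-2.25 ± 0.27), Tmem171 (-2.25 ± 0.11) and Tm4sf4 (-2.24 ± 0.13) followed, with Ogn, a small leucine-rich proteoglycan of connective tissue (-2.22 ± 0.15). For Paqr7 the arrays of each group lay close together, at 14.09, 14.07 and 14.09 in mock and 11.75, 11.71 and 11.72 with vanillin.

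**Figure D2:**
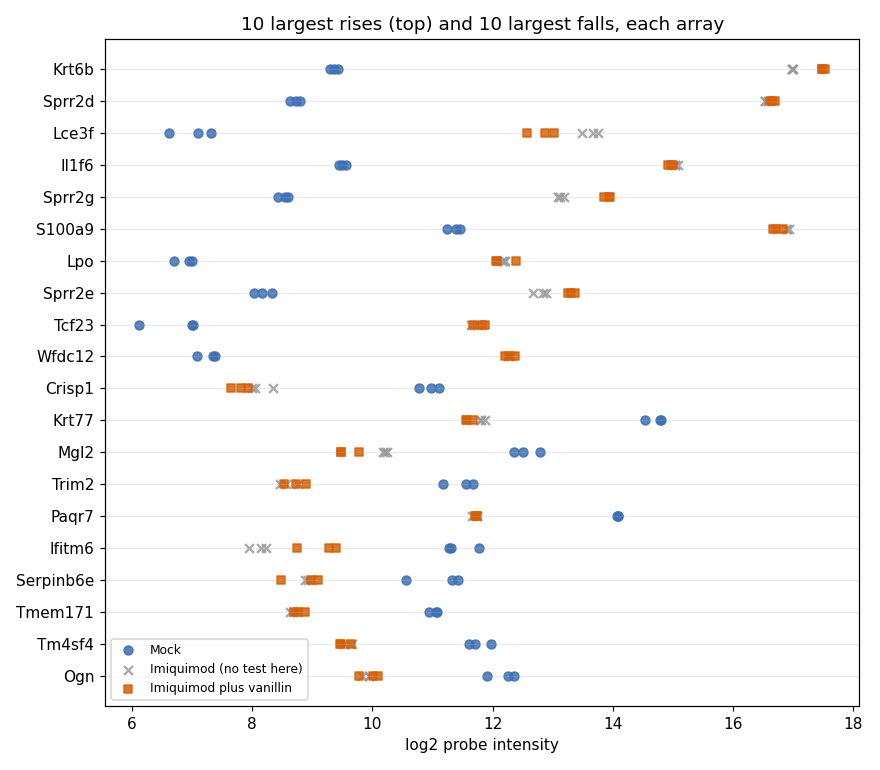
Log2 intensity on each of the 9 arrays for the 10 largest rises (upper rows) and the 10 largest falls (lower rows); each point is 1 array, coloured by group. The mock and vanillin arrays are separate for every gene shown by the rule that chose them, and were so for 41.1% of all genes. Krt6b lies at 9.30 to 9.43 in mock and 17.48 to 17.53 with vanillin.

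Keratins changed in both directions. Keratins 6, 16 and 17 mark activated epidermis; keratins 5 and 14 form the basal cytoskeleton and keratins 1 and 10 the suprabasal one. Of 5 activation keratins measured, 2 rose, Krt6b and Krt16 (3.70 ± 0.12, 14.26, 14.14 and 13.98 in mock and 17.75, 17.89 and 17.84 with vanillin), and Krt75, a companion-layer keratin of the follicle, fell (-0.81 ± 0.11). Krt6a differed by 0.53 ± 0.16 with a limma adjusted p of 0.0587, just past the threshold, and Krt17 by -0.07 ± 0.10 (limma adjusted p = 0.683). Among the 12 basal and suprabasal genes, Krt1 (3.47 ± 0.14) and Krt78 (2.40 ± 0.17) rose while Krt77 and Krt15, a keratin of basal and bulge cells (-0.68 ± 0.12), fell. Krt5, Krt14 and Krt10 differed by 0.33, 0.22 and 0.22 and were not called. Krt1 stood at 13.98, 13.69 and 13.83 in mock and 17.49, 17.34 and 17.08 with vanillin. Krt10, with which it pairs, and Krt14 read close to the highest value of the equalised scale in both groups (18.33 to 18.51 and 18.51 to 18.72 for Krt10), which limits how far a rise of either could show.

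Small proline-rich proteins are crosslinked into the cornified envelope by transglutaminases, and their genes stand together on chromosome 3. Of 11 measured, 8 were called higher and 1 lower, with a median difference of 2.85 against 0.0098 over all genes. The members with the next largest rises after Sprr2d were Sprr2g, Sprr2e, Sprr2i (4.30 ± 0.12) and Sprr1b (3.84 ± 0.14; 12.21, 12.48 and 12.65 in mock and 16.21, 16.27 and 16.40 with vanillin). Sprr4 was the member that fell (-1.55 ± 0.10), and Sprr1a (0.37 ± 0.26) and Sprr3 (0.25 ± 0.12) were not called. Genes of this family are close in sequence, and whether a probe reads 1 member alone is not known here. In the RefSeq promoters of GRCm38.p6, Sprr2d and Sprr2e share 220 of 250 upstream bases compared position by position, 88.0%. That share does not show what the probes read. The promoters of 3 members that rose are shown because AP-1 factors, some of whose genes changed in either direction, are known regulators of this cluster. Capitals mark the letters TGANTCA, read on both strands, on the gene's own strand 5′ to 3′, in windows of 80 bases upstream of the RefSeq start. The windows are chr3:92338910-92338989 for Sprr2d and chr3:92351913-92351992 for Sprr2e, on the plus strand, and chr3:92438850-92438929 for Sprr1b, on the minus strand.
Sprr2d: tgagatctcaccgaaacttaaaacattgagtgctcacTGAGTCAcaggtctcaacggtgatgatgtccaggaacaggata
Sprr2e: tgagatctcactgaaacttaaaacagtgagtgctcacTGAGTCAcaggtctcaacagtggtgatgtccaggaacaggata
Sprr1b: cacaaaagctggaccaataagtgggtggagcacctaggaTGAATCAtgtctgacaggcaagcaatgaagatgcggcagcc
The motif was present within 250 bases upstream of 8 of the 10 measured members with a promoter in the table, against 7.82% of all 27025 genes there. A match describes the sequence and was not tied to binding by any measurement.

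Late cornified envelope proteins are made in the last living layers of the epidermis. All 14 measured were called, 13 higher and Lce1m lower (-0.79 ± 0.12), with a median of 1.82. Members of the Lce3 group, which are induced when the barrier is damaged, rose by 5.81 (Lce3f), 3.93 (Lce3e), 3.39 (Lce3b) and 2.32 (Lce3a). Those of the Lce1 group that rose did so by 1.18 (Lce1a1) to 3.14 (Lce1k). Among the 23 structural proteins and enzymes of the envelope, 14 rose and 1 fell. Rptn (repetin) rose by 4.27 ± 0.14, Casp14, the protease that processes filaggrin, by 3.04 ± 0.11, and Hrnr (hornerin) by 2.83 ± 0.17. Casp14 read 11.28, 11.37 and 11.44 on the mock arrays and 14.48, 14.33 and 14.42 on the vanillin arrays. The filaggrin gene Flg rose as well (1.40 ± 0.14), as did the kallikreins Klk5 (1.62 ± 0.12) and Klk7 (0.91 ± 0.10), which cleave corneodesmosomes, and their inhibitor Spink5 (1.01 ± 0.14). Lor, which encodes loricrin, the main envelope protein, differed by 0.30 ± 0.13 and was not called (limma adjusted p = 0.151).

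Barrier lipids are ceramides with very long acyl chains, made from precursors that keratinocytes load into lamellar bodies. Of 16 genes of this pathway, 13 were called higher and none lower, with a median of 0.83. Degs2, which makes phytoceramide, rose from 9.76, 10.12 and 10.11 to 13.27, 13.27 and 13.51 (3.36 ± 0.14). The lipoxygenase Aloxe3 (1.83 ± 0.10), the lipid transporter Abca12 (1.503 ± 0.14) and Cers3, the ceramide synthase for ultra-long chains (1.47 ± 0.11), also rose. For Degs2 and Cers3 another, dimmer probe was not called (0.20 and -0.33), so those values hold for the brighter probe. Genes of sterol and fatty acid synthesis were mixed, with 7 of 17 higher and 2 lower. Sqle, squalene epoxidase, rose (0.92 ± 0.11), and Fdps, farnesyl diphosphate synthase, fell (-0.69 ± 0.11).

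**Figure D3:**
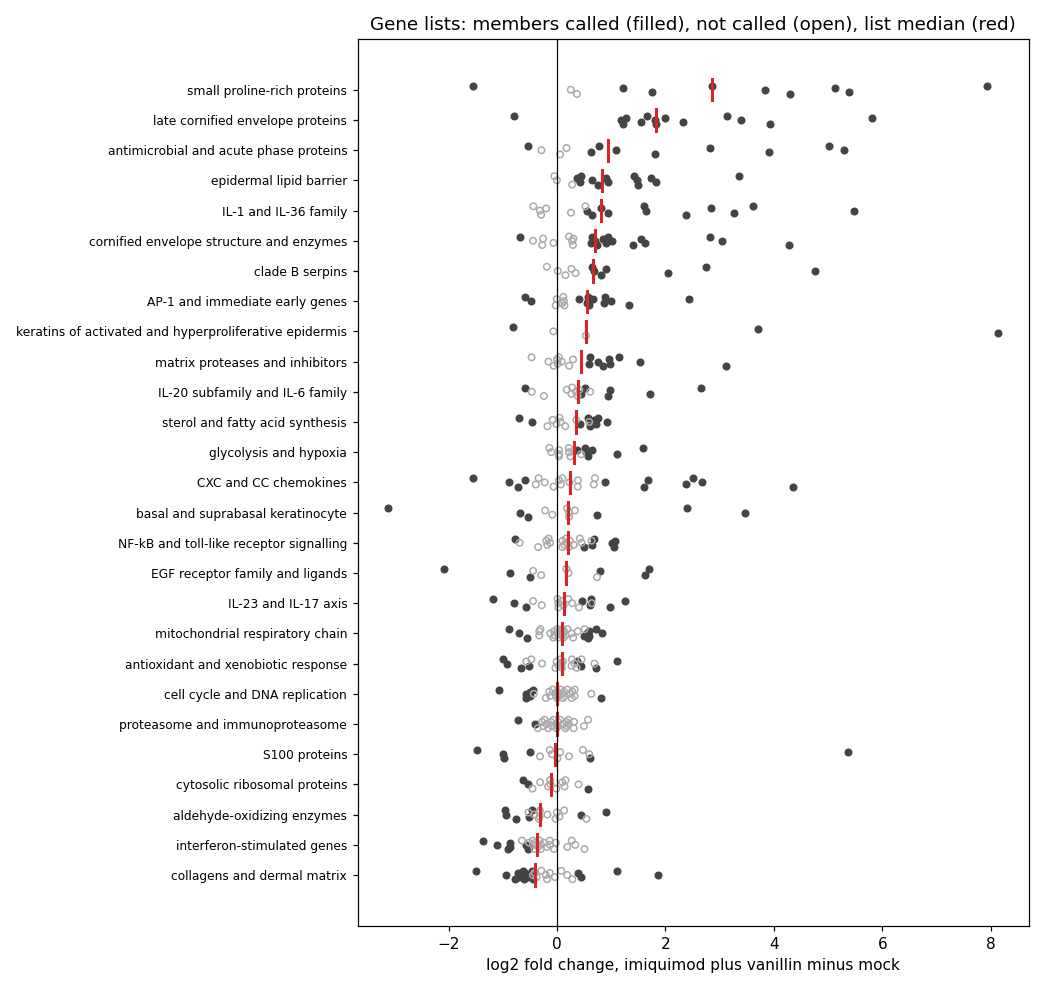
For each list of genes, the x axis gives the log2 difference of vanillin plus imiquimod minus mock; filled points are called genes, open points genes not called, and the red bar is the list's median. Small proline-rich and late cornified envelope genes have medians of 2.85 and 1.82, and interferon-stimulated and matrix genes of -0.37 and -0.41.

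Among secreted antimicrobial proteins, 8 of 12 rose and 1 fell, with a median of 0.94. Defb14, the mouse counterpart of human beta-defensin 3, went from 9.43, 9.20 and 9.29 to 13.01, 13.42 and 13.21 (3.91 ± 0.14). Lcn2, which binds bacterial siderophores, rose by 2.81 ± 0.12, and Slpi, an inhibitor of leukocyte proteases, by 1.81 ± 0.11. Defb4 fell by 0.53 ± 0.11 with a limma adjusted p of 0.0139; without Mock 2 or Mock 3 that p was 0.070 or 0.053. The S100 proteins showed no common direction, with 2 of 14 higher and 4 lower, and 1 higher without Mock 3 or Vanillin 2. That is 42.9% called beside 21.98% of all genes. S100a9 rose, whereas the probe for its calprotectin partner S100a8 was dim, at intensity percentile 12.89, and differed by -0.31 ± 0.36 (limma adjusted p = 0.583). S100a7a, a psoriasin-related gene, fell (-1.47 ± 0.13), as did S100b, a glial marker (-0.99 ± 0.18). Clade B serpins inhibit proteases in the epidermis, and 7 of the 12 on the list rose with none lower. Serpinb6e, of the same clade but not on the list, was among the 10 largest falls. Serpinb12 rose most, from 9.52, 9.77 and 10.19 to 14.56, 14.54 and 14.63 (4.75 ± 0.17), followed by Serpinb6c (2.74 ± 0.17) and Serpinb3d (2.05 ± 0.23).

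In the IL-1 and IL-36 family, 11 of 17 genes were called higher and none lower, with a median of 0.80. IL-36 cytokines are agonists made by keratinocytes, and the receptor antagonist IL-36Ra opposes them at the same receptor. After Il1f6, the other agonist genes Il1f9 (IL-36 gamma; 3.61 ± 0.12) and Il1f8 (IL-36 beta; 2.37 ± 0.13) were raised, and so was the antagonist Il1f5 (9.22, 8.82 and 9.06 in mock and 12.27, 12.39 and 12.24 with vanillin, 3.27 ± 0.13). The receptor gene Il1rl2 differed by -0.44 ± 0.35 and was not called (limma adjusted p = 0.425). Il1b rose by 1.64 ± 0.11, Il18 by 1.61 ± 0.10, and the receptor Il1r1 by 0.95 ± 0.15. Il33, a nuclear alarmin of barrier cells, read 10.82, 10.32 and 10.24 in mock and 13.29, 13.44 and 13.19 with vanillin (2.85 ± 0.18), and 12.36 to 12.44 on the imiquimod arrays. No mock array reached the lowest vanillin array for any of these called genes, while the groups did not overlap for 41.1% of all genes.

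The interleukin-23 and interleukin-17 axis, named in the title of the series, changed in both directions. Of 19 genes, 5 were higher, 3 lower and 11 not called, so that 42.1% were called beside 21.98% of all genes, and the median was 0.12. Interleukin-23 is a dimer of p19, encoded by Il23a, and p40, encoded by Il12b. Il23a read 8.59, 8.87 and 8.68 in mock, 9.06, 9.22 and 9.78 with vanillin and 10.37 to 10.80 on the imiquimod arrays. The vanillin arrays all lay above the mock arrays, but the difference of 0.64 ± 0.20 was not called (limma adjusted p = 0.0581). Without Vanillin 1 it was 0.79 and called (limma adjusted p = 0.049). Il12b was lower (-0.80 ± 0.13, limma adjusted p = 0.0059). Il17a, the cytokine itself, read 7.75, 7.71 and 7.69 in mock and 7.71, 7.24 and 6.88 with vanillin, a difference of -0.44 ± 0.20 that was not called (limma adjusted p = 0.177). Without Vanillin 1 it was -0.66 and called (limma adjusted p = 0.037). Its probe, like that of Il17d, was among the dimmest 25%. Il17f differed by 0.41 ± 0.17 (limma adjusted p = 0.134). The receptor subunits Il17ra (0.03), Il17rc (0.21) and Il23r (0.28) were not called. Il17d, a more distant family member made outside the immune system, fell (-1.19 ± 0.14). Ccl20, a keratinocyte chemokine that draws interleukin-17 producing cells, read 9.72, 9.86 and 10.004 in mock, 10.55, 10.44 and 10.41 with vanillin and 11.14 to 11.29 on the imiquimod arrays (0.61 ± 0.12, limma adjusted p = 0.0111). Its receptor gene Ccr6 rose by 1.26 ± 0.12, and Nfkbiz, a nuclear IkB protein that interleukin-17 induces, by 0.98 ± 0.13. Il22 was not among the genes measured.

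Of 16 genes of the IL-20 subfamily and the IL-6 family, 6 were higher and 1 lower; leaving out Vanillin 2 left 3 higher, and leaving out Mock 2 or Vanillin 1 left 4. Il24, an IL-20 subfamily cytokine that signals to keratinocytes, read 7.33, 7.47 and 7.41 in mock, 10.18, 9.94 and 10.07 with vanillin and 8.001 to 8.06 on the imiquimod arrays (2.66 ± 0.11, limma adjusted p = 2.03e-05). Il19 of the same subfamily rose by 1.71 ± 0.23, on a probe among the dimmest 25%. Lif, an IL-6 family cytokine, rose by 0.94 ± 0.16. Il6 rose from 5.54, 6.29 and 6.17 to 6.96, 7.11 and 6.85 (0.97 ± 0.21, limma adjusted p = 0.0154), on a dim probe at percentile 11.02; without Vanillin 2 the adjusted p was 0.056.

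Among 23 CXC and CC chemokines measured, 7 rose and 4 fell, 47.8% called beside 21.98% of all genes. The neutrophil attractants Cxcl1, Cxcl2 and Cxcl3 were among those higher with vanillin plus imiquimod than in mock. Cxcl2, a ligand of the neutrophil receptor Cxcr2, read 6.51, 6.23 and 5.81 on the mock arrays, 10.59, 10.65 and 10.36 on the vanillin arrays and 7.17 to 7.54 on the imiquimod arrays (20.4-fold over mock, 4.35 ± 0.19, limma adjusted p = 2.43e-05). The vanillin arrays were the highest of the 3 groups for this gene. Its neighbours Cxcl1 (7.15, 6.42 and 7.01 in mock, 8.53, 8.62 and 8.44 with vanillin, 1.67 ± 0.20) and Cxcl3 (6.80, 6.93 and 6.67 in mock, 8.35, 8.38 and 8.52 with vanillin, 1.61 ± 0.12) were also higher than in mock. On the imiquimod arrays they read 7.89 to 7.99 and 7.49 to 7.63. Ccl4, a chemokine that attracts monocytes, read 7.71, 7.78 and 7.73 in mock, 10.51, 10.38 and 10.33 with vanillin and 8.64 to 8.94 with imiquimod (2.67 ± 0.10). Ccl3, another CC chemokine, read 7.41, 6.95 and 6.71 in mock, 9.63, 9.68 and 9.27 with vanillin and 7.05 to 7.12 with imiquimod (2.50 ± 0.20). For Ccl3 the imiquimod arrays fell within the range of the mock arrays, and the vanillin arrays lay above both. Cxcl13, which attracts B cells, rose by 2.37 ± 0.12. In the other direction, Cxcl12, a stromal chemokine that retains leukocytes through Cxcr4, went from 14.15, 14.22 and 14.26 to 12.73, 12.65 and 12.59 (-1.55 ± 0.10), and Cxcl14 (-0.88 ± 0.13) and the eosinophil attractant Ccl11 (-0.73 ± 0.13) fell. The monocyte attractant Ccl7 was lower (-0.59 ± 0.16, limma adjusted p = 0.034), a call lost without Mock 1, Mock 2, Mock 3 or Vanillin 2 (limma adjusted p of 0.063 to 0.111). Cxcl10 (0.70 ± 0.66, limma adjusted p = 0.501) and Ccl2, which also attracts monocytes (0.10 ± 0.39, limma adjusted p = 0.881), were not called. Without Mock 1, Ccl2 turned to -0.40 and was called lower (limma adjusted p = 0.038).

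Cxcl1, Cxcl2 and Cxcl3 lie close together on chromosome 5, and the upstream sequence of each is shown because all 3 rose and all 3 hold a match to the NF-kB consensus. Capitals mark GGGA, any 2 bases and TTCC, searched on both strands, where overlapping matches form the run in capitals. The windows of 80 bases are chr5:90891135-90891214 for Cxcl1, chr5:90903769-90903848 for Cxcl2 and chr5:90785991-90786070 for Cxcl3, in GRCm38.p6 from RefSeq, all on the plus strand.
Cxcl1: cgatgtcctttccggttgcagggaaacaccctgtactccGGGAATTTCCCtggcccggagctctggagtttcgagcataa
Cxcl2: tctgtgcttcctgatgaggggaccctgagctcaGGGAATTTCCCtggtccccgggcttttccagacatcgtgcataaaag
Cxcl3: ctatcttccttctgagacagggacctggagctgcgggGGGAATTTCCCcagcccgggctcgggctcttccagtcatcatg
The match was present within 250 bases upstream of 4 of the 14 measured chemokine genes with a promoter in the table, against 1.36% of all genes there. Cxcl1, Cxcl2 and Cxcl3, with the same run of bases, are among these 4, and the 14 were counted whether or not they rose. No measurement tied a match to binding or to the rises. Of 24 genes of NF-kB and toll-like receptor signalling themselves, 6 were called higher and 1 lower, which is 29.2% beside 21.98% of all genes. Nfkb1, the p105 precursor of the p50 subunit, rose by 1.07 ± 0.10, Rel by 1.01 ± 0.12, and Birc3, an inhibitor of apoptosis that NF-kB induces, by 1.05 ± 0.12. Tnfaip3, which encodes the feedback inhibitor A20, fell (-0.78 ± 0.13). Tnf itself differed by -0.35 ± 0.32 (limma adjusted p = 0.483), and Tlr7, the receptor for imiquimod, by -0.20 ± 0.12 (limma adjusted p = 0.278).

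**Figure D4:**
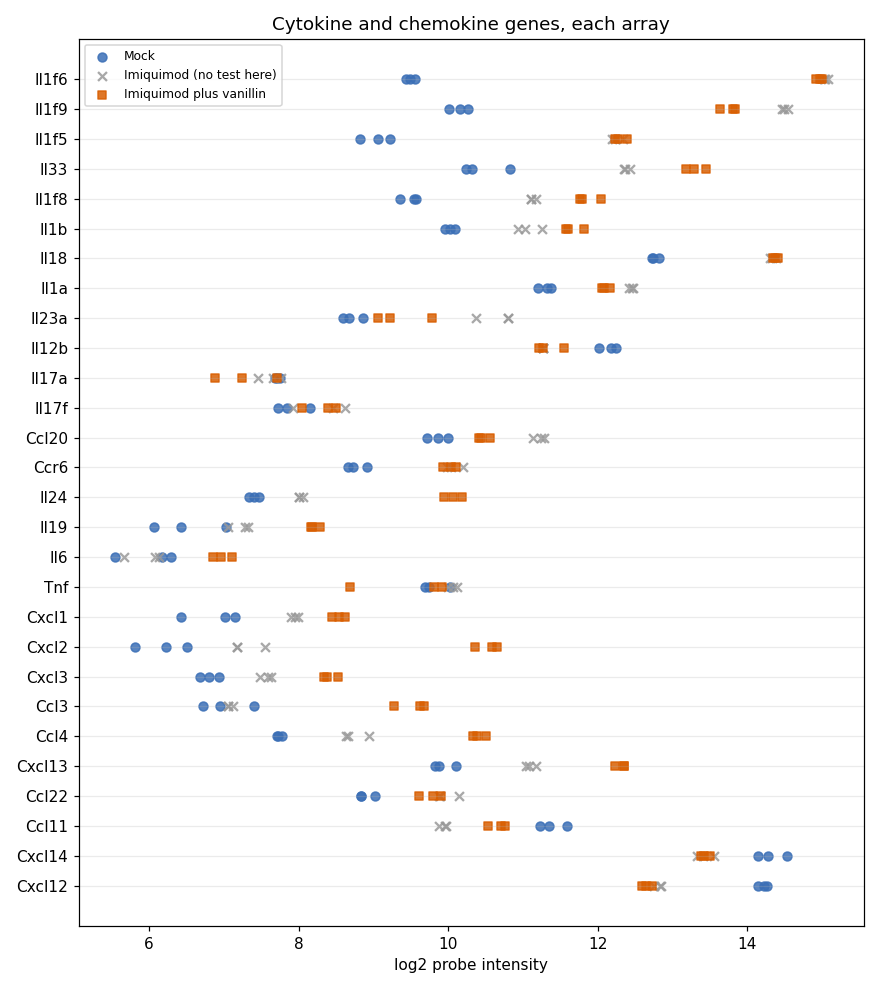
Log2 intensity on each array for cytokine and chemokine genes, with 1 point an array and colours for mock, imiquimod, and imiquimod plus vanillin. Cxcl2 reaches 10.36 to 10.65 with vanillin against 5.81 to 6.51 in mock, while Il23a lies at 8.59 to 8.87 in mock and 9.06 to 9.78 with vanillin.

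Immediate early genes encode transcription factors that rise within minutes of a stimulus. Of 19 measured, 11 were called higher and 2 lower, with a median of 0.56, and leaving out Mock 2, Mock 3, Vanillin 1 or Vanillin 2 left 5 to 7 higher. Fos, a subunit of AP-1, read 11.86, 11.35 and 11.31 in mock, 13.95, 14.12 and 13.76 with vanillin and 12.17 to 12.25 on the imiquimod arrays (2.43 ± 0.18, limma adjusted p = 2.34e-04). Dusp1, a phosphatase that switches off MAP kinases, rose by 1.33 ± 0.12, and Fosb by 0.99 ± 0.15. The members called lower were Jun, a partner of Fos in AP-1 (-0.48 ± 0.11), and Egr2 (-0.60 ± 0.15). The Jun call was lost without Mock 2, Mock 3 or Vanillin 2 (limma adjusted p of 0.068 to 0.080), and the Egr2 call without Mock 1, Mock 2, Vanillin 1 or Vanillin 3 (0.051 to 0.1002). Of the EGF family, the ligands Epgn (1.69 ± 0.15), Ereg (1.63 ± 0.14) and Hbegf (0.79 ± 0.11) rose, whereas the ligand Tgfa (-0.86 ± 0.16) and the receptor Erbb3 (-2.08 ± 0.20) fell; 5 of 11 members were not called. Among 18 matrix proteases and their inhibitors, 9 rose and none fell. Mmp10, a stromelysin of migrating keratinocytes, rose by 3.12 ± 0.20 from a dim level of 5.58, 5.38 and 5.02 in mock. Adam8 (1.52 ± 0.11), Mmp9, a gelatinase carried by neutrophils (1.15 ± 0.12), and the inhibitor Timp1 (0.84 ± 0.11) rose as well.

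Genes that type I interferon induces were lower or not called. Of 28 measured, 8 were called lower and none higher, which is 28.6% called beside 21.98% of all genes. Their median was -0.37, and without Mock 1, 10 were lower and 1 higher. Usp18, which restrains interferon signalling, went from 9.91, 10.27 and 10.52 to 8.98, 8.90 and 8.73 (-1.36 ± 0.17, limma adjusted p = 0.00195) and read 8.89 to 8.96 on the imiquimod arrays. Ifit2 fell by 1.10 ± 0.17, Zbp1, a sensor of left-handed nucleic acid, by 0.90 ± 0.11, and Gbp2, a guanylate-binding GTPase, by 0.86 ± 0.17. Isg15, a ubiquitin-like modifier, fell from 11.81, 11.85 and 11.86 to 11.29, 11.42 and 11.23 with a limma adjusted p of 0.0118, which was 0.058 without Mock 2. Gbp3 fell by 0.51 ± 0.10, a call that was lost without Mock 3, Vanillin 1 or Vanillin 2 (limma adjusted p of 0.051 to 0.059). Rsad2 (0.34 ± 0.11) and Irf1 (0.51 ± 0.17) lay on the other side of 0 and were not called; without Mock 1, Irf1 was called higher (limma adjusted p = 0.021). The upstream windows of 3 genes called lower are shown because they hold a match to the interferon-stimulated response element. Capitals mark GAAA, any 2 bases and again GAAA, which reads TTTC, any 2 bases and TTTC where the match is on the opposite strand; overlapping matches form a longer run. The windows are chr4:156200839-156200918 for Isg15 (minus strand), chr3:142620563-142620642 for Gbp2 and chr3:142559944-142560023 for Gbp3 (both plus strand), GRCm38.p6 from RefSeq.
Isg15: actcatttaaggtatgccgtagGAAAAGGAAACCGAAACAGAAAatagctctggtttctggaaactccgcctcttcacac
Gbp2: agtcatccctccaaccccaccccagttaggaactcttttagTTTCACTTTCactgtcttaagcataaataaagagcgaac
Gbp3: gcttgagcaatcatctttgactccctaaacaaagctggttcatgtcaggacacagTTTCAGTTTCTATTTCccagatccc
Matches were present upstream of 9 of the 21 measured genes of the list with a promoter in the table, and of 3 of the 6 of them called lower, against 3.46% of all genes there. No measurement tied these matches to binding or to the falls.

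Markers of immune cells moved beside these cytokine genes. Of 15 neutrophil markers 8 were called higher and none lower, and their mean level per array was 8.73 to 8.76 in mock, 9.54 to 9.72 with vanillin and 9.17 to 9.26 on the imiquimod arrays. This list includes S100a9, its largest difference, which keratinocytes also make; the median difference of the list was 0.65. Cxcr2, the receptor for Cxcl1 and Cxcl2, went from 6.51, 6.23 and 6.50 to 9.25, 9.18 and 8.86 (2.68 ± 0.15), on a probe among the dimmest 25%. Csf3r, the receptor for granulocyte growth factor, rose by 0.86 ± 0.17. The granule genes Camp, Ngp, Ltf, Mpo and Elane were not called (-0.29, -0.23, 0.06, 0.35 and 0.36), except Elane without Vanillin 3 (limma adjusted p = 0.028). Of 12 monocyte and macrophage markers 6 were higher and 1 lower, 58.3% called beside 21.98% of all genes. Without Mock 2, Mock 3, Vanillin 1 or Vanillin 2, 4 were higher, and without Vanillin 3, 7 were. Their array means were 10.09 to 10.16 in mock and 10.49 to 10.65 with vanillin. Adgre1, which encodes F4/80, rose by 1.92 ± 0.12 and Itgam by 1.20 ± 0.10, whereas Cd68 fell (-0.86 ± 0.13). Of 11 T cell markers 3 were higher and none lower, 27.3% called beside 21.98% of all genes. The count higher was 2 without Mock 1, Mock 2, Mock 3 or Vanillin 1, and 4 without Vanillin 3. Array means were 8.93 to 9.002 in mock, 9.37 to 9.48 with vanillin and 9.63 to 9.66 on the imiquimod arrays. The costimulator Icos (1.49 ± 0.14), on a dim probe, and Cd5 (1.28 ± 0.17) rose, while Cd3e (0.18), Cd3g (0.28) and Cd4 (-0.22) were not called. Cd8a was called higher (0.74, limma adjusted p = 0.0485), a call lost without Mock 1, Mock 2, Mock 3 or Vanillin 1. Its other probe was not called (0.08). Of 14 dendritic and Langerhans cell genes 2 were higher and 3 lower, 35.7% called, with a median of 0.07. Without Mock 2 or Vanillin 2, 1 was higher and 1 lower. Among them, Cd209a fell from 9.42, 9.58 and 9.58 to 7.86, 7.77 and 7.51 (-1.81 ± 0.13). The costimulator Cd86 rose (1.28 ± 0.11), and Cd207, which marks Langerhans cells, was not called (0.09 ± 0.18). The part of these cells in the cytokine and chemokine differences was not tested.

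**Figure D5:**
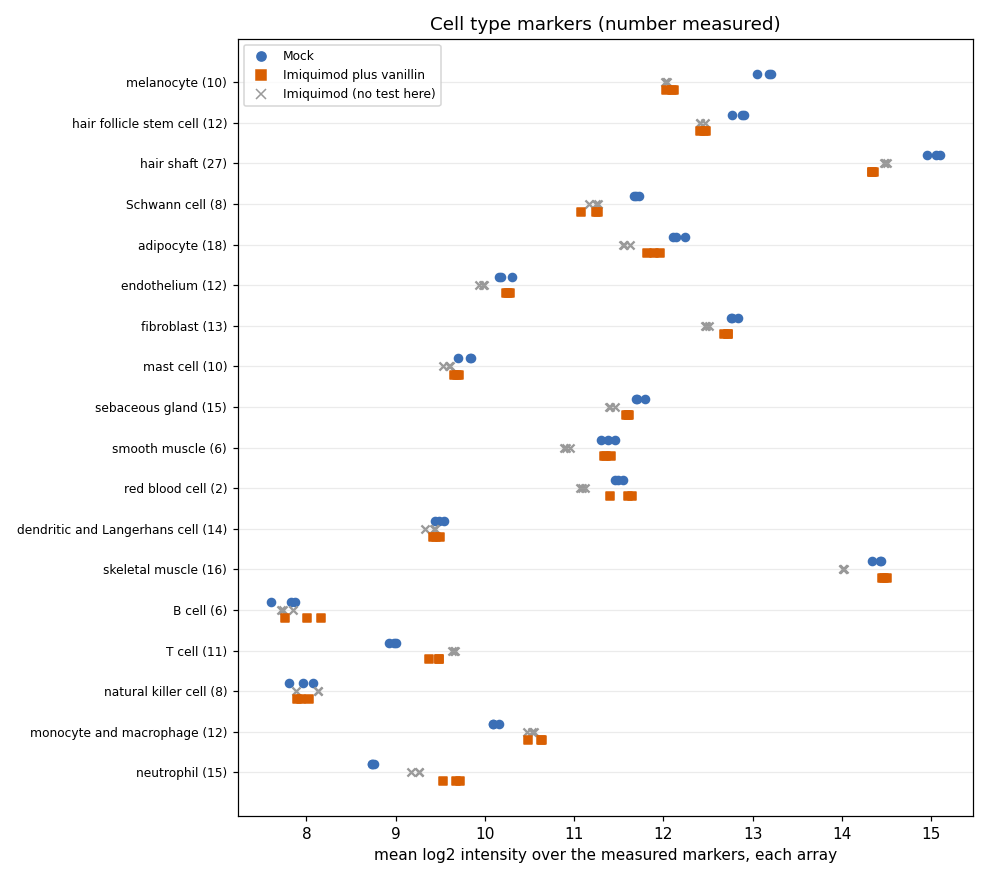
Mean log2 intensity of each cell type's marker genes on each array, with 1 point an array, for mock, imiquimod, and imiquimod plus vanillin. Neutrophil markers lie at 8.73 to 8.76 in mock and 9.54 to 9.72 with vanillin, and melanocyte markers at 13.05 to 13.20 and 12.02 to 12.12.

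Genes of the hair shaft, of follicle stem cells and of pigment cells were lower or not called. Of 27 hair shaft genes 14 fell and none rose, 51.9% called beside 21.98% of all genes, with a median of -0.58. The count lower was 10 without Vanillin 1 and 11 without Mock 3. Array means of the list were 14.95 to 15.10 in mock, 14.34 to 14.36 with vanillin and 14.47 to 14.50 on the imiquimod arrays. Krt39, a hair keratin, went from 10.55, 10.72 and 10.78 to 8.65, 8.68 and 8.48 (-2.08 ± 0.12), and Dsg4, the desmoglein of the hair shaft, fell by 1.84 ± 0.11. The hair keratins Krt27, Krt71, Krt86 and Krt35 differed by -0.04, -0.11, -0.00 and 0.19 and were not called. Among 12 follicle stem cell genes 6 fell, 50% called, among them Lrig1 (-0.89 ± 0.12), Lhx2 (-0.83 ± 0.11) and Cd34 (-0.87 ± 0.10). Without Mock 2, Mock 3, Vanillin 1 or Vanillin 2, 4 were lower. Lgr5, the marker of cycling follicle stem cells, differed by -0.22 ± 0.12 and was not called (limma adjusted p = 0.265). Of 10 melanocyte genes 8 fell and none rose, a median of -1.15. BALB/c mice are albino but keep melanocytes. Oca2, a melanosomal transporter, went from 12.68, 12.67 and 12.58 to 10.88, 10.74 and 10.70 (-1.87 ± 0.11), and Dct, an enzyme of melanin synthesis, fell by 1.22 ± 0.14. Pmel, a melanosome matrix protein, fell by 1.28 ± 0.11 on its brighter probe, and by 0.13 on a dimmer one that was not called. Mitf, the factor that drives the lineage, fell by 0.98 ± 0.13. The melanocyte array means were 13.05 to 13.20 in mock, 12.02 to 12.12 with vanillin and 12.02 to 12.04 on the imiquimod arrays. Of 15 sebaceous gland genes 2 rose and 5 fell, 46.7% called. Mc5r, the melanocortin receptor of sebocytes, was lower (-1.34 ± 0.12) and the fatty acid elongase Elovl3 higher (1.45 ± 0.13). How the mix of follicle stage and cell types in each sample bore on these values was not tested.

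The dermis differed too. Of 27 collagens and matrix genes 12 were called lower and 4 higher, with a median of -0.41; without Mock 2, Mock 3 or Vanillin 2 the count lower was 5, and without Vanillin 1 it was 6. Fn1, fibronectin, went from 12.33, 12.03 and 11.99 to 10.60, 10.82 and 10.46 (-1.49 ± 0.15). Col4a2 of the basement membrane (-0.94 ± 0.12), Col3a1 (-0.72 ± 0.14) and tenascin-C, Tnc (-0.78 ± 0.11), also fell. Col1a1 went the other way, from 8.26, 8.32 and 8.46 to 10.10, 10.27 and 10.23 (1.86 ± 0.11), while Col1a2, whose chain joins it in type I collagen, differed by -0.13 ± 0.12 (limma adjusted p = 0.484). Col7a1, the anchoring fibril collagen made by keratinocytes and fibroblasts, rose by 1.11 ± 0.19. Of 12 endothelial genes 4 were higher and 2 lower, 50% called, and without Mock 2, Mock 3 or Vanillin 2, 2 were higher. The adhesion molecules Vcam1 (1.26 ± 0.16) and Selp (0.83 ± 0.13) rose, and the endothelial receptors Cdh5 (-0.83 ± 0.11) and Tek (-0.99 ± 0.13) fell. Pecam1 of the same list was not called on its brightest probe (-0.25), while dimmer probes were called lower (-0.69 and -1.11). Of 18 adipocyte genes 3 fell, 16.7% called beside 21.98% of all genes. The count lower was 2 without Mock 2, Mock 3, Vanillin 1 or Vanillin 2, and 4 without Mock 1. Adipoq, adiponectin, was at 15.67, 15.69 and 15.48 in mock, 14.996, 14.79 and 14.85 with vanillin and 14.03 to 14.12 on the imiquimod arrays (-0.74 ± 0.12). The Pnpla2 call (-0.36) was lost when any 1 array was left out. Of 16 skeletal muscle genes 3 rose and 1 fell, 25% called and near the share of all genes. Without Mock 2, 1 was higher and 0 lower, and the lower call was left only without Vanillin 1. The means per array were 14.34 to 14.44 in mock, 14.45 to 14.51 with vanillin and 14.01 to 14.03 on the imiquimod arrays. Ckm, muscle creatine kinase, differed by -0.17 ± 0.10 and Acta1, skeletal actin, by -0.21 ± 0.15, and neither was called.

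Vanillin is an aldehyde, and enzymes that oxidise aldehydes were listed for that reason. Of 19 measured, 2 were higher and 5 lower, 36.8% called beside 21.98% of all genes, with a median of -0.32. Without Mock 2 or Vanillin 2, 3 were lower. Aldh1b1 (-0.96 ± 0.14), a mitochondrial enzyme, Aldh1a7 (-0.94 ± 0.14) and Aldh3a2, the fatty aldehyde dehydrogenase whose loss causes an ichthyosis (-0.76 ± 0.11), fell. Aldh3b2 rose (0.91 ± 0.11), and the aldehyde oxidases Aox1, Aox3 and Aox4 differed by -0.03, -0.00 and 0.04 and were not called. Of 24 antioxidant and xenobiotic response genes 4 were higher and 4 lower, 33.3% called. Without Mock 2, Mock 3 or Vanillin 2, 1 was higher and 3 were lower. Nqo1 (-0.01), Hmox1 (0.36) and Gclm (0.27), targets of the factor Nrf2, were not called, although Hmox1 was without Mock 1 (limma adjusted p = 0.042), and Gclc (-0.93 ± 0.11), Gstp1 (-0.99 ± 0.11) and Txnrd1 (-0.66 ± 0.10) fell. Gpx1, a glutathione peroxidase, rose by 1.12 ± 0.10. In glucose metabolism 7 of 16 genes were higher and none lower, 43.8% called. The count higher was 4 without Mock 2, Vanillin 1 or Vanillin 2. Slc2a1, the glucose transporter GLUT1, went from 12.79, 12.82 and 12.80 to 14.31, 14.37 and 14.48 (1.58 ± 0.10).

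Of 28 genes of cell division measured, 1 was higher and 6 lower, which is 25% called, near the 21.98% of all genes. Their median was 0.01. Mki67, the proliferation marker, read 13.73, 13.33 and 13.22 in mock and 13.37, 13.46 and 13.21 with vanillin (-0.08 ± 0.16, limma adjusted p = 0.769). Ccnb2, a mitotic cyclin, fell (-1.06 ± 0.15), and Ccne1, a cyclin of entry into S phase, rose (0.81 ± 0.11). The 6 helicase subunits Mcm2 to Mcm7 differed by 0.00 (Mcm2) to 0.33 (Mcm3), none of them called. The count of lower genes was 1 without Mock 2, 2 without Vanillin 2, 3 without Mock 3 or Vanillin 1 and 7 without Mock 1.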

How the data were processed

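Skin RNA, on 3 arrays for each of the treatments, was measured on 1-colour arrays. The authors deposited 1 table of linear intensities of 26423 probes, and per the submitters' processing notes limma was used, with the version not given there. The steps themselves were not given in the sources used here, and the table's equal distributions were seen in its values. Scanner files and background flags were not used here, so no probe could be called absent. Precision is limited by having 3 arrays a group.

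Probe symbols came from the platform annotation and were matched to RefSeq (GRCm38.p6): 18213 were current, 2126 were updated from a synonym and 38 were kept as given; 6046 probes had none. Values under 1 (2 or 3 an array) were set to 1 and log2 was taken. The mock and vanillin arrays were fitted with lmFit and eBayes (limma 3.58.1, R 4.3.3), with Benjamini-Hochberg adjustment and a threshold of 0.05. A gene was represented by its brightest probe over the 6 arrays; 2278 genes had several probes, and 36 had probes called in opposite directions. The script was tested on simulated data.

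The genes named were the 10 largest rises and falls among called genes with separate groups and at least median intensity, up to 4 members of each of 45 lists with the smallest adjusted p, and a fixed set; other list members were chosen after their values were seen. The comparison, the members and the lists were chosen with earlier results of these data known. The vanillin samples' source label reads "and/or", while their treatment label gives imiquimod and vanillin. Equal replicate numbers did not pair the arrays (correlations of deviations 0.03, -0.26 and -0.09), so no block was used in the reported fit. Alternatives covered the normalization, dim probes, the offset before log2, the spread prior, array weights, all 9 arrays, the replicate block, the threshold, the probes tested, the probe of a gene and leaving out each array.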

Additional observations from a re-analysis of the deposited data

Results flagged for a closer look

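The probes without a gene symbol entered none of the comparisons above. When all 26423 probes were tested together, 684 of the 6046 probes without a symbol were called between vanillin plus imiquimod and mock (limma adjusted p under 0.05), 315 higher and 369 lower, which is 11.3% of them. What these probes measure was not analysed here.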

How the results depend on the processing

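Counts moved with the fit more than the values of the named genes did. Against 3899 genes and 4530 probes called, array weights gave 8286 and 9529, and an adjusted p under 0.01 gave 1753 and 2042. With the replicate block, 2310 genes and 2708 probes were called, of which 2289 genes were shared with the reported fit; the arrays share only a number, so no pairing is implied. Leaving out 1 array gave 2118 to 4054 genes, 2500 to 4647 probes and 793 to 901 genes of at least 2-fold change. Under the other alternatives run, each of the 3 counts stayed within 1.5 times the reported one. Of 191 named genes 176 were called, and 150 of these kept their call and direction in all of the 17 alternatives that included them. With the dimmest 25% of probes left out, 177 of the 191 remained. Among called genes, Pnpla2, a fat lipase called lower, changed sign (0.0080 with the mean of its probes); S100a8, Tnf and Cd79a, not called under any alternative, also crossed 0. Ccl20 and Isg15 lost their calls with the block (adjusted p = 0.051 and 0.053), as did Defb4 (0.058). Il23a was called with the dimmest probes left out (0.038), with all 9 arrays (0.035), with array weights (0.047) and with a trended, robust prior (0.045). Dim probes limit what their values can show, since no background flags were used. Those of Il6, S100a8, Mmp10, Cxcr2, Icos, Il19, Il17a, Il17d, Serpinb3d, Prf1 and Klrd1 were among the dimmest 25%. So were those of Cxcl1 and Cxcl3.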

Other observations

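Beyond the 10 largest rises, the next in size held Fetub and several kallikreins. Fetub, a protease inhibitor, read 8.20, 8.22 and 8.06 in mock and 13.05, 12.74 and 12.76 with vanillin (4.69 ± 0.13). The kallikreins Klk9 (3.74 ± 0.10), Klk13 (3.35 ± 0.17) and Klk8 (3.001 ± 0.10) rose, as did the water channel Aqp5 (2.95 ± 0.24) and the glucose transporter Slc5a1 (3.07 ± 0.14). Among the next falls were Angptl4, an inhibitor of lipoprotein lipase (-2.16 ± 0.14), Trem2, a receptor of lipid-handling macrophages (-1.82 ± 0.10), and Ptgds, a prostaglandin D synthase (-1.75 ± 0.13). These genes were chosen after their values were seen.

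Mast cell genes were split. Of 10 measured, 4 fell and 2 rose. Mrgprb2, a receptor of connective tissue mast cells, went from 9.27, 8.98 and 8.999 to 8.01, 7.77 and 7.88 (-1.20 ± 0.13), and Kit (-1.09 ± 0.14) and the chymase Cma1 (-0.84 ± 0.15) also fell. Mcpt8, a basophil protease, rose (1.20 ± 0.10), as did Hdc, which makes histamine (1.11 ± 0.16). Of 8 natural killer cell genes Prf1 (-0.95 ± 0.16) and Nkg7 (-0.77 ± 0.10) fell with Klrd1, and Eomes rose (0.88 ± 0.10). The median of this list was 0.31, and 6 of the 8 probes were among the dimmest 25%. The Klrd1 call was lost without Mock 3 (limma adjusted p = 0.069). Of 8 Schwann cell genes 4 fell and none rose, 2 without Mock 2 or Vanillin 1, and the myelin gene Pmp22 fell by 0.81 ± 0.10. The array means of this list were 11.67 to 11.72 in mock, 11.07 to 11.27 with vanillin and 11.17 to 11.27 on the imiquimod arrays.

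Of 32 respiratory chain subunits 7 were higher and 3 lower, 31.2% called beside 21.98% of all genes, with differences from -0.89 to 0.84 and a median of 0.10. The count higher was 2 without Mock 2 and 3 without Mock 3 or Vanillin 2. Sdhb of complex II fell (-0.89 ± 0.17) and Ndufa2 of complex I rose (0.84 ± 0.10). Of 13 ribosomal protein genes 1 was higher and 2 lower, 23.1% called (median -0.12), and neither lower call was left without Mock 2 or Mock 3. Of 26 proteasome genes 2 were lower and none higher, 7.69% called. The count lower was 4 without Mock 1, and 1 when any other array was left out. Psmb7 fell (-0.71 ± 0.11), and the immunoproteasome subunits Psmb8 (0.02), Psmb9 (0.17) and Psmb10 (0.57) were not called.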
